A study of Homo sapiens with 3 samples.

Results

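The genes described are 9 regulators and executors of mitochondrial apoptosis: BCL2, BCL2L1, MCL1, BAK1, BID, BCL2L11, BAD, APAF1 and CASP9. They were taken by gene symbol from the annotation of the array probes, and all 9 were found, with 17 probes, among 16225 genes with a named probe. The samples are undifferentiated human embryonic stem (ES) cells, which are pluripotent cells derived from the early embryo, of 3 lines: H9, counted as replicate 1, BG03 as replicate 2 and ES01 as replicate 3. They form 1 group, and no line carried a treatment or an engineered allele by the labels. All were grown on irradiated mouse embryonic fibroblasts (MEFs) in DMEM/F12 medium to which KSR, BME, NEAA, L-glutamine and FGF2 had been added. Total RNA of each line was read on 1 Illumina bead array, so a difference between lines holds the line, its culture and its array together and has no replicate check. The study also held mouse ES cells and EpiSCs for comparison, which were not analysed here.

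Cells can die from within when proteins of the BCL2 family open the outer membrane of the mitochondria. Survival proteins such as BCL2, BCL-XL and MCL1 hold the pore-forming effectors BAK and BAX in check, and BH3-only proteins such as BID, BIM and BAD switch the balance toward death by binding them. Cytochrome c released through the pores then assembles APAF1 into the apoptosome, which activates caspase-9 and through it further caspases. Human ES cells are known to enter apoptosis readily after DNA damage or when dissociated.

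The sequence just before the start site was available from RefSeq (build GRCh38.p14) for 8 of the members, in 15 windows of 250 bases; MCL1 was the remaining member. These windows are shown for BCL2, BCL2L1 and APAF1 because the elements found in them differed. Capitals mark GGGCGG (the GC box), CCAAT or TATAAA on either strand, and each sequence reads 5′ to 3′ along the gene and ends at the last base before an annotated start site; for BCL2 that start lies inside the gene's span, which is given with its values. The BCL2 window is chr18:63319770-63320019 on the minus strand, the BCL2L1 window is that of its upstream start, chr20:31723964-31724213 on the minus strand, and the APAF1 window is chr12:98645040-98645289 on the plus strand.
BCL2: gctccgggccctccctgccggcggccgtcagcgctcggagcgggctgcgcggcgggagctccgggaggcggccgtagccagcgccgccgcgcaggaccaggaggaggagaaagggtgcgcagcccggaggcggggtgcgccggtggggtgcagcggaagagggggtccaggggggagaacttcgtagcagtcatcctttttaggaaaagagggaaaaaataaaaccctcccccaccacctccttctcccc
BCL2L1: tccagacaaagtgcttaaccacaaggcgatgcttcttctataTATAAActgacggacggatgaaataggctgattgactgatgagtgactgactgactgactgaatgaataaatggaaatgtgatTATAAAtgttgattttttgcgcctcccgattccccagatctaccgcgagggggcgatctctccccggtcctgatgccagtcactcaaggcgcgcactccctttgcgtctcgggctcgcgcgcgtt
APAF1: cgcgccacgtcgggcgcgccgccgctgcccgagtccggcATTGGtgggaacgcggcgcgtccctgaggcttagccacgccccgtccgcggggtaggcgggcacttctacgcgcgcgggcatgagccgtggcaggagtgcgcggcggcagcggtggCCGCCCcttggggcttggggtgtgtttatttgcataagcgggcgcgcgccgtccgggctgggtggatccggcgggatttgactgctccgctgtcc
GGGCGG lay in at least 1 window of 6 member genes, namely BAK1, BID, BCL2L11, BAD, APAF1 and CASP9, and in no window of BCL2 or BCL2L1. Of all 27305 genes with such a window, 46.2% held it, and of all 35116 windows 42.6% did. CCAAT lay in windows of 5 members (APAF1, BAD, BAK1, BCL2L11 and CASP9), against 37.0% of all genes. TATAAA lay in the upstream BCL2L1 window, at 2 places, and in no other member window, against 13.0% of all genes. CACGTG lay in 2 windows of BID, against 7.73% of all genes. In all, 10 elements were searched on both strands. The other 6 were TTCNNNGAA, TGACGTCA, TGACTCA, TTTCGCGC, TTTGGCGC and 1 fixed spelling of the NF-kB site. None of these matched a member window, against 8.09%, 2.03%, 5.19%, 0.542%, 0.681% and 0.216% of all genes, in that order. With shares this low and 8 members, the lack of a match does not set the members apart. Other spellings of the NF-kB site were not searched. The 10 elements were chosen with the expression values known, windows of a gene overlap, and a match is a run of letters and no measured binding site.

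The labelled cell type was checked first. Of 7 measured markers of undifferentiated ES cells, 6 were above background in all lines, among them NANOG at 130.1, 123 and 127 units in H9, BG03 and ES01; SOX2, read by 1 probe, was not above it in any line. ZFP42 (364, 779.7 and 247 units) and POU5F1 (269.6, 287 and 195) were lowest in ES01, whereas DNMT3B (6715, 7558 and 9013) was highest there. None of 4 trophoblast markers was above background, 1 of 5 neural and 2 of 5 blood and endothelial markers were above it in all lines, as were 5 of 5 endoderm markers. Of all named genes, 59.8% were above it in all lines. TEK was highest in ES01 (29.4, 48.15 and 161.6), whereas KDR was highest in H9 (60.6, 44.4 and 47.9). PAX6, under background in H9, was highest in ES01 (3.8, 14.8 and 24.2), and DCX in BG03 (34.4, 76.3 and 55.4). Of 8 fibroblast markers, 4 were above background in all lines, and COL3A1 was at background in all. The summed intensity of the 8 was 1164, 1215 and 1581 in H9, BG03 and ES01, mostly from THY1 (752, 851 and 824) and COL1A2 (310, 229 and 582). COL1A1, PDGFRB and TWIST1 were highest in ES01, as was COL1A2. LUM was highest in BG03 (10.1, 48.9 and 10.1) and DCN in H9 (30.5, -0.6 and 26.4). Endoderm markers summed to 619, 689 and 787 in the same order, which rests on AFP (148, 322 and 383); the 4 others summed to 471, 368 and 404, and TTR was highest in H9 (81.5, 12.8 and 21.0). The part of these markers in the differences below was not tested.

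Of the 9 members, 8 passed background in each of the 3 lines, against 59.8% of all named genes. Background was set on each array at the 95th percentile of probes for olfactory receptors, genes of the nose that are expected to be silent here: 11.2, 12.6 and 13.3 units for H9, BG03 and ES01. The exception was BCL2, which passed the threshold in BG03 and ES01 and lay under it in H9. BCL2L11 was above it by little in each line. With the 99th percentile (25.2, 30.8 and 21.4 units), neither BCL2 nor BCL2L11 passed in any line and the count was 7. Each triplet of values names H9 first, then BG03, then ES01, as quantile-normalized intensity in array units, with the SD of the 3 log2 values (n = 3). Levels of different genes were read by different probes and are not set against each other.

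**Figure D1:**
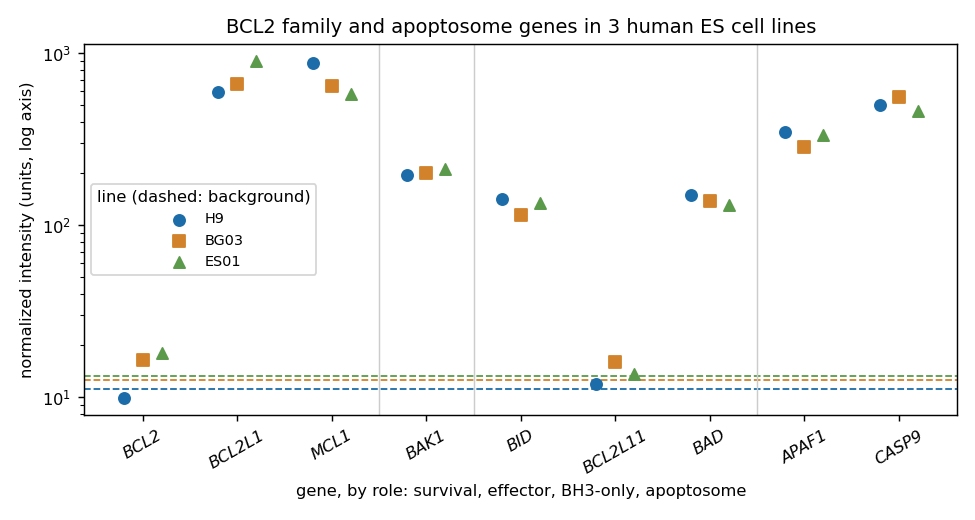
Normalized intensity (array units, log axis) of the 9 members, ordered by role, in H9, BG03 and ES01, with 1 point per array and dashed lines at each array's background threshold. BCL2 and BCL2L11 lie near the thresholds of 11.2 to 13.3 units, and the 7 other genes lie above 100 units in every line.

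At their brightest probes, which stand for the genes here, the survival genes BCL2L1 and MCL1 differed between the lines in opposite order. This did not hold at every probe: the dimmer MCL1 probe, for the long form, was highest in ES01, and with the mean over probes MCL1 differed by -0.08 on the log2 scale between ES01 and H9. BCL2L1 encodes BCL-XL, which protects mitochondria from pore formation, and its short splice form BCL-XS promotes death. BCL2L1 (gene ID 598, chromosome 20, 31664452 to 31723963, GRCh38.p14) measured 595, 663 and 901 units (log2 SD 0.31). It was lowest in H9 and highest in ES01, 1.51-fold higher there than in H9 and 1.36-fold higher than in BG03. MCL1, a survival protein with a short half-life, is encoded on chromosome 1 (gene ID 4170, 150574558 to 150579610) and measured 877, 642 and 578 units (log2 SD 0.31). It was highest in H9, 1.37-fold above BG03 and 1.52-fold above ES01, and lowest in ES01. Seen as a ratio within each array, which no scaling factor of an array can change, BCL2L1 over MCL1 at the brightest probes was 2.30-fold higher in ES01 than in H9 after quantile normalization and 2.29-fold higher in the values as deposited. With the mean over probes it was 1.40-fold higher, and with the long-form probes of both genes it was lower in ES01 (0.853 of that in H9). Between BG03 and H9 the ratio was 1.52-fold higher in BG03 at the brightest probes, 1.40-fold with the mean over probes and 1.28-fold with the long-form probes. Between ES01 and BG03 it was 1.51-fold higher in ES01 at the brightest probes, 1.0-fold with the mean over probes and 0.664-fold with the long-form probes. The pair and these alternatives were picked after the values had been seen. A gene with H9 lowest and ES01 highest was common, at 21.7% of the 11004 genes that passed background in some line, as was the opposite order at 18.8%.

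The error over beads gives a rough lower limit to the technical error of such differences, and every multiple of it below is for a difference in deposited units. Each array averaged a median of 42 beads per bead type, and the standard error over beads was read from the 401 bead types nearest in intensity rank, since no table used here links bead codes to genes. For the 7 members over 100 units it came to between 2.79% and 5.34% of the value, and for BCL2 and BCL2L11 to between 17.8% and 29.3%. This error is in raw bead intensity and was not rescaled to deposited units, so the percentages, multiples and counts past a multiple are approximate. At the rank of the brightest MCL1 probe, bead means were 962.5 in H9 and 684.0 in BG03. The deposited values there were 842.4 and 662.6. In deposited units BCL2L1 was 334 higher in ES01 than in H9, with a bead standard error of 32.2, and MCL1 dropped by 262 with one of 30.6. These are 10.4 and 8.57 times the bead error, at the brightest probes. The dimmer MCL1 probe went the other way, from 92.6 deposited units in H9 to 126.1 in ES01. Its bead standard errors were 5.69 in H9 and 6.74 in ES01, so the 2 MCL1 probes disagreed in direction. Of the 27 differences over 9 genes and 3 pairs of lines, 11 were larger than 2 bead standard errors and 4 larger than 5, all 4 of them in BCL2L1 or MCL1. The share of all genes past these limits was not worked out. The counts therefore do not show that the members, or BCL2L1 and MCL1, differ more than other genes of like brightness. A multiple of the bead error sets 2 arrays apart and leaves out the spread between cultures of a line, which was not measured.

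**Figure D2:**
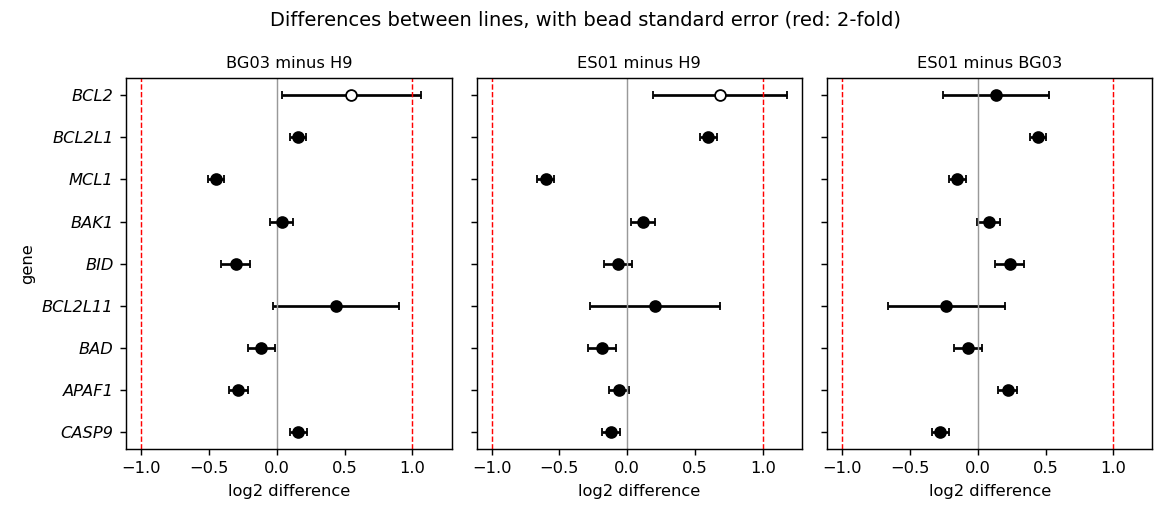
Log2 difference of each member between 2 lines (x axis) for the 3 pairs, with bars of 1 bead standard error and red lines at 2-fold; open circles mark differences against a value under background. At the brightest probes BCL2L1 and MCL1 lie on opposite sides of 0 in each pair, at 0.60 and -0.60 between ES01 and H9, and no member reaches 2-fold.

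BCL2, the founding survival gene of the family, was dim. Its used probe, annotated to the transcript of the alpha form (gene ID 596, chromosome 18, 63123346 to 63320090), read 9.87, 16.4 and 18.0 units (log2 SD 0.36 with H9 set to its threshold). H9 was under background, and against its threshold ES01 differed by 0.68 and BG03 by 0.55 on the log2 scale; with 1 threshold for all arrays these values were 0.44 and 0.31. In deposited units the difference between ES01 and H9 was 8.30 with a bead standard error of 4.35, that is 1.91 times the error, and between BG03 and H9 it was 6.0 with one of 4.33. These multiples are approximate, and a difference between the lines in BCL2 was not clearly told apart from bead error at this brightness.

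At the probes used, BAK1 and BAD had the smallest spread over the lines among the members. BAK1, which forms the pores in the outer mitochondrial membrane (gene ID 578, chromosome 6, 33572552 to 33580276), measured 196, 201 and 213 units (log2 SD 0.06), and 9.11% of the 11004 genes had a smaller SD. Its 3 differences were each under 2 bead standard errors. BID, which caspase-8 cuts to carry the signal of death receptors to mitochondria (gene ID 637, chromosome 22, 17734138 to 17774665), measured 141, 114 and 135 units (log2 SD 0.16, with a smaller one in 41.7% of genes). BG03 was 1.23-fold below H9, a difference of 2.67 times the bead error in deposited units, and ES01 lay between them. BCL2L11, encoding BIM (gene ID 10018, chromosome 2, 111120914 to 111168445), measured 11.9, 16.0 and 13.7 units (log2 SD 0.22, with a smaller one in 57.3% of genes), and each of its differences was under 1 bead standard error. BAD, whose protein is held inactive by survival kinases (gene ID 572, chromosome 11, 64269828 to 64284704), measured 149.6, 138 and 132 units (log2 SD 0.09, with a smaller one in 19.4% of genes), and none of its differences reached 2 bead standard errors.

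At the probes used, APAF1 was lowest and CASP9 highest in BG03. APAF1, the scaffold of the apoptosome (gene ID 317, chromosome 12, 98645290 to 98735433), measured 347, 285 and 332 units (log2 SD 0.15). It was lowest in BG03, 1.22-fold under H9 and 1.17-fold under ES01 after normalization. In deposited units these differences were 2.96 and 2.71 bead standard errors. CASP9, the caspase that the apoptosome activates (gene ID 842, chromosome 1, 15491401 to 15524912), measured 499, 557 and 459.8 units (log2 SD 0.14). It was highest in BG03, 1.12-fold above H9 and 1.21-fold above ES01 after normalization. In deposited units these differences were 3.75 and 4.83 bead standard errors. As deposited, the CASP9 log2 difference between BG03 and H9 was 0.24, against 0.16 after normalization. The median over all genes was then 0.07 higher in BG03, so the multiple holds part of that shift. With the mean over both CASP9 probes, the second of which was highest in H9, BG03 was lower than H9 by a log2 difference of -0.089.

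The SD over lines depended on the probe rule. It was 0.31 for MCL1 at the brightest probe and 0.051 with the mean over probes, 0.31 and 0.23 for BCL2L1, and 0.36 and 0.24 for BCL2. The median SD of all 11004 genes at the brightest probe was 0.19. No member differed 2-fold between any lines, against 8.29% of the 11004 genes. At 1.5-fold, BCL2L1, MCL1 and BCL2 passed at the brightest probes, all between ES01 and H9, and BCL2 only against the H9 threshold. That is 3 of 9 members, against 26.0% of all genes in any pair and 16.3% in that pair. With the mean over probes these log2 differences were 0.41 for BCL2L1, -0.08 for MCL1 and 0.46 for BCL2, all under 1.5-fold. The median log2 difference over the members was 0.04 between BG03 and H9, -0.06 between ES01 and H9 and 0.08 between ES01 and BG03, beside 0.03, 0.01 and -0.01 over all 11004 genes.

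A test in limma set the variance of every gene among the lines against that of genes of like intensity, with Benjamini-Hochberg adjustment over 11004 genes. It called 0 genes (0.0% of those tested) at an adjusted p under 0.05, 0 with the robust fit, and 516 and 507 at an unadjusted p under 0.05. The unadjusted p from limma was 0.101 for BCL2L1 and 0.101 for MCL1 (limma, adjusted p = 0.978 for each), and BCL2 had an adjusted p of 0.98 in the same limma test. With data simulated at the fitted spread, 0 of 200 genes altered 16-fold in 1 line were found, so it could not have called these differences. It gives no evidence that the lines were alike.

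Most members were read by several probes, whose names mark whether a probe was designed to read all transcripts of a gene or 1 of them. Of the 17 member probes, 10 were above background in all lines and 4 in none. The share over all named probes was not worked out, so these counts do not set the members apart. MCL1 and BCL2L1 had 2 probes above background throughout, and those of MCL1 went opposite ways. The MCL1 probe for all transcripts fell from 877 in H9 to 578 in ES01, and the probe for the long form, the one that protects cells, measured 92.7, 111 and 127 units, 1.37-fold higher in ES01. The long-form probe ordered the lines as the brightest BCL2L1 probe did. Opposite directions between the brightest 2 probes were frequent: of 452 genes with 2 probes above background in all lines, 181 (40.0%) went opposite ways between ES01 and H9. For BCL2L1, the probe for the long form BCL-XL measured 16.9, 26.0 and 19.7 units and was highest in BG03. The 2 BCL2L1 probes placed H9 lowest and disagreed on the order of BG03 and ES01.

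**Figure D3:**
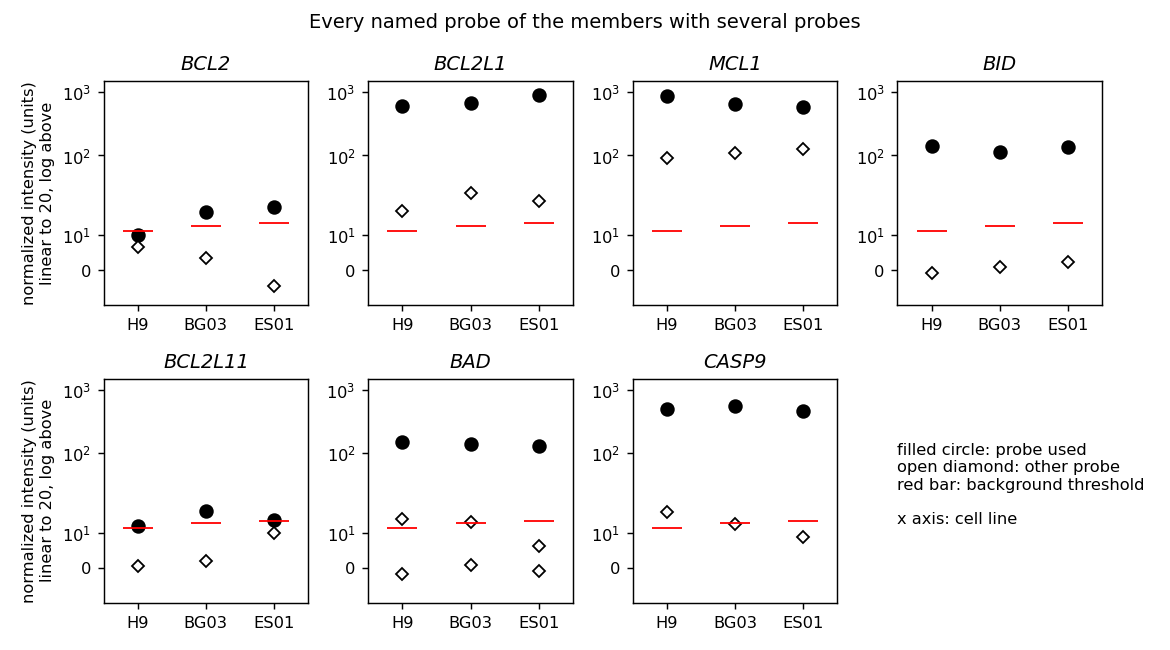
Intensity of every named probe (y axis, array units, linear to 20 and logarithmic above) of the 7 members with several probes, by line; filled circles are the probe used, open diamonds the others and red bars the background thresholds. The 2 MCL1 probes go opposite ways from H9 to ES01, and the other probes of BID lie under background in each line.

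The remaining probes added little signal. The second BCL2 probe, for the beta form, was under background in each line (6.57, 3.43 and -4.67 units), as were the second probes of BID (-0.97, 1.0 and 2.30) and BCL2L11 (0.40, 2.03 and 9.77). Of the 2 further BAD probes, the brighter read 13.8, 13.0 and 6.27 units and passed background in H9 and BG03, and the dimmer passed in no line. The second CASP9 probe, for the full-length transcript, read 15.9, 12.3 and 8.87 units and passed in H9 alone. Whether these probes read their transcripts was not checked, so low signal does not show that a form is missing.

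The wider pathway was described with a list of 56 further genes, of which 50 were analysed here. Of the 50, 36 passed background in every line, against 59.8% of all named genes, 5 in some lines and 9 nowhere; this difference and those between roles were not tested. Of the 41 above background in some line, 4 differed at least 2-fold between lines, against 8.29% of all such genes, and 2 differed when either H9 or ES01 was left out. Of the other BCL2 relatives, 6 of 8 were above background in all lines. BAX, the partner effector of BAK1, measured 30.6, 27.4 and 30.8 units, named here after its values were seen. A second BAX probe, at 8.63, 18.0 and 12.0 units, passed background in BG03 alone and was highest there, where the used probe was lowest. The survival gene BCL2L2 measured 107.9, 86.6 and 80.7 units, highest in H9. BCL2A1, another survival gene, stayed under background in each line, and BCL2L10 passed it in ES01 alone at 16.3 units.

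Among the BH3-only genes, 5 of 7 were above background in all lines. PMAIP1, encoding NOXA, the BH3-only protein that binds MCL1, measured 1715, 1407 and 1128 units (log2 SD 0.30). It was highest in H9 and 1.52-fold lower in ES01. BNIP3, a mitophagy gene induced by low oxygen, measured 2417, 1348 and 1048 units and was 2.31-fold higher in H9 than in ES01. BIK measured 158, 150.0 and 209 units, highest in ES01. BBC3, encoding PUMA, was above background in BG03 and ES01 (10.1, 15.8 and 13.4 units), and BMF in no line.

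Mitochondrial death proteins were above background for 6 of 6 genes. CYCS, cytochrome c, measured 241, 298 and 345 units, lowest in H9. DIABLO, which frees caspases from their inhibitors, measured 264, 220.2 and 216 units and HTRA2, a protease with the same effect, 101, 102 and 78.3. A second HTRA2 probe, above background in all lines at 94.7, 69.7 and 60.4 units, was highest in H9. AIFM1, the apoptosis-inducing factor of the respiratory chain, differed most, at 49.6, 100.2 and 23.1 units, 4.34-fold between BG03 and ES01; its second probe was under background in all lines.

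Of 4 measured caspases, 3 were above background in all lines. CASP6 measured 541, 400.2 and 609 units and CASP10, a caspase of death receptors, 430.2, 472 and 468. A second CASP6 probe, above background in all lines at 78.6, 83.4 and 58.5 units, was highest in BG03 and lowest in ES01. CASP8, the initiator caspase of death receptors, was not above background at any of its 3 probes. Of 6 measured inhibitors of apoptosis, 4 were above background in all lines. XIAP, a direct inhibitor of caspase-9, measured 606, 717 and 922 units (log2 SD 0.30), lowest in H9 and 1.52-fold higher in ES01. BIRC2 measured 356, 304 and 471 units and BIRC5, encoding survivin, 1335, 1077 and 1222. BIRC7 and NAIP were not above background in any line.

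Of the death receptor genes, 3 of 10 were above background in all lines. TNFRSF10B, a receptor for the ligand TRAIL, measured 697, 707 and 788.5 units. TNFRSF10A, the other death-signalling TRAIL receptor, was under background in H9 and at 30.4 and 31.6 units in BG03 and ES01. Against the H9 threshold of 11.2 units these were at least 2.71-fold and at least 2.82-fold higher. At the 99th percentile, 25.2 units in H9, the difference was under 2-fold. The adaptor FADD measured 87.6, 70.9 and 62.6 units. The decoy receptors TNFRSF10C and TNFRSF10D and the ligands TNFSF10 and FASLG were not above background in any line. Genes of the execution step were above it for 5 of 5: PARP1, a caspase substrate in DNA repair, measured 6024, 7078 and 6818 units, the nuclease inhibitor DFFA 316, 284 and 303, and the nuclease DFFB 62.1, 74.8 and 49.7. ROCK1, a kinase that caspases activate to drive blebbing, was lower in ES01 (32.9, 36.2 and 16.1 units), 2.04-fold against H9. HUWE1 and FBXW7, ubiquitin ligases that send MCL1 to degradation, measured 195, 167 and 160.2 units and 473, 418 and 411. A second FBXW7 probe, at 14.4, 22.9 and 20.2 units, was lowest in H9. BAG1, a BCL2-binding co-chaperone, measured 797, 932 and 758 units.

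**Figure D4:**
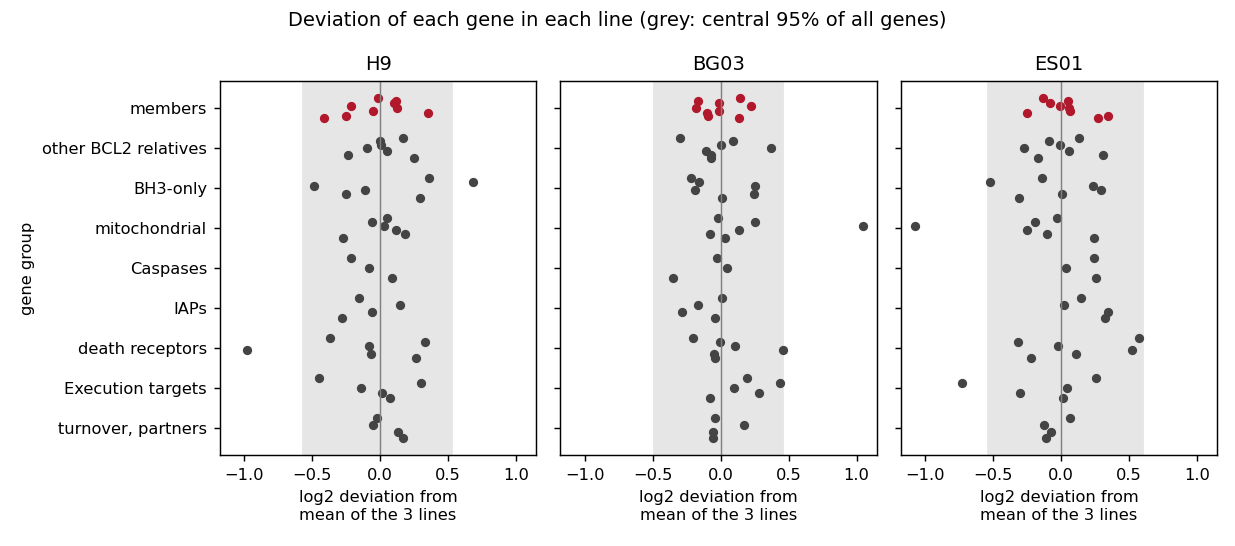
Log2 deviation of each gene from its mean over the 3 lines (x axis), 1 panel per line, for the 9 members (red) and the 41 pathway genes above background in some line (grey), by role; the shaded band holds the central 95% of all 11004 genes. The members stay inside the band in each line. AIFM1 lies outside it in BG03 and ES01, TNFRSF10A and BNIP3 in H9, and ROCK1 in ES01.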

How the data were processed

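RNA of the 3 lines was isolated with TRIzol and, labelled with Cy3, read on Illumina arrays, per the labels' protocols. The deposited table holds a linear intensity for each of 47293 probes, with background already subtracted (26.3% to 33.8% of values are below 0); which software and scaling made them is not given in the sources used here. The deposited bead files hold 1 intensity per bead. Bead codes shared between an array's 2 files after an offset did not correlate (r 0.02 to 0.03), so the files are no repeat of each other and the planned comparison between them was dropped.

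Of the probes, 18468 have 1 gene symbol, 0 several and 28825 none here; 18451 were named by gene ID (assembly GRCh38.p14). Quantile normalization used limma 3.58.1 (R 4.3.3) and all but 4 control probes. Background was taken from 215 olfactory receptor probes, at their 95th percentile. The brightest probe stood for a gene with several. A value below background took the threshold's value ahead of log2, and differences used genes above it in at least 1 line. Beads lying more than 3 median absolute deviations off the median of their type were dropped (0.534% to 0.583%). In the variance test, simulated data for 11004 genes with 200 changed in 1 line yielded 0 calls among those at 4-fold or 16-fold under the fitted spread, and 113 (4-fold) and 190 (16-fold) under a more even one. Python 3.11.15 (numpy 2.4.6, pandas 2.3.3, matplotlib 3.10.9) made summaries and figures.

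Members and lists were chosen with earlier results of these data known. Pathway genes were named if among the first 3 measured of their role, at least 2-fold different, or not above background in any line; BAX was added after its values were seen. Alternatives covered scaling, threshold, background set, probe rule, floor, filter, fold and leaving out each line.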

Additional observations from a re-analysis of the deposited data

How the results depend on the processing

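Counts of genes above background moved little under other thresholds or without single lines; the members numbered 4 when every probe of a gene had to pass, against 8. Members past the fold threshold numbered 0 at 2-fold under every scaling, floor, probe rule and left-out line tried. At 1.5-fold they numbered 3 at the brightest probes, and the same 3 genes stayed under 1.5-fold with the mean over probes. Pathway genes past 2-fold numbered 4, with 2 at the 99th percentile background, 14 at 1.5-fold and 2 to 4 without single lines. At the 99th percentile BNIP3 and AIFM1 stayed past 2-fold, whereas TNFRSF10A and ROCK1, with values near background, did not. Scaling arrays to the same median over all probes, most of which are dim, shifted all genes in ES01 by a median of -0.27 against H9 and -0.34 against BG03; the members' medians moved with it to -0.35 and -0.27, and the variance test called 88 genes. The share of genes at least 2-fold different that were higher in ES01 fell from 56.4% to 21.1% against H9 and from 60.5% to 18.1% against BG03. The mean over probes turned the members' median between ES01 and H9 to 0.087, and the 99th percentile background, which leaves out BCL2 and BCL2L11, turned that between BG03 and H9 to -0.12. Between ES01 and H9, BCL2L1 stayed higher (0.33 to 0.66) and MCL1 lower (-0.87 to -0.08) in all 7 alternatives. Of these, only the mean over probes brought in a second probe, and it gave the -0.08. The dimmer MCL1 probe alone gave a log2 difference of 0.45, so the shared direction does not cover that probe. In 2 alternatives added after seeing the data, the log2 change of the BCL2L1 over MCL1 ratio moved from 1.20 to 0.48 (mean over probes) and -0.23 (long-form probes) between ES01 and H9, and from 0.59 to 0.00096 and -0.59 between ES01 and BG03. Of 183 differences of single members under alternatives, 161 moved by less than the SD over lines. That limit is wider for genes whose lines differ more, and it lets a change of sign pass. In some alternative the sign changed for BAK1, BID, BCL2L11 and BAD between ES01 and H9, and for CASP9 between BG03 and H9. Between ES01 and BG03 it changed for BCL2, MCL1, BAK1, BID, BAD and APAF1. No paired analysis was possible because the labels give 1 group. Dim signal limits BCL2 and BCL2L11, and 1 array per line limits every difference.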
